A study of Mus musculus with 12 samples.

Results

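Ankyrin repeat and SOCS box (Asb) proteins, the numbered kelch families Klhl and Kbtbd, the F-box protein Fbxo32 and the muscle RING proteins Trim54, Trim55 and Trim63 were followed in mouse fibroblasts converted towards muscle by MyoD. Members were the genes on the array whose symbol is Asb, Klhl or Kbtbd with a number, together with Fbxo32, Trim54, Trim55 and Trim63. Of 68 such symbols in the RefSeq gene table, 59 were named on the array and 48 could be tested, among 12300 genes tested in all. The 48 were 10 Asb, 29 Klhl and 5 Kbtbd genes with Fbxo32 and 3 Trim genes.

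All these proteins help to choose what the cell marks with ubiquitin. An Asb protein binds its substrate through ankyrin repeats and joins the Cul5 ligase through its SOCS box, while most Klhl and Kbtbd proteins hold the substrate with a kelch domain and join Cul3 through a BTB domain. Fbxo32 (atrogin-1) joins Skp1 and Cul1 through its F-box, and the Trim members are RING ligases of their own, known as MuRF proteins. Several members are best known in striated muscle, where they act on sarcomere proteins or on protein breakdown during atrophy.

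The cells were C3H/10T1/2, a mouse embryonic fibroblast line that MyoD can turn into muscle-like cells, in 2 lines stably making a hairpin RNA that targets Six4 (shSix4) or luciferase as the control (shLuc). Each line received a pBABE retrovirus encoding Flag-MyoD-myc or the empty pBABE vector, was moved 24 h after infection to medium with 2% horse serum, and was harvested 24 h later. The groups were shSix4 cells with MyoD, shSix4 cells with empty vector, shLuc cells with MyoD and shLuc cells with empty vector, with 3 single-colour arrays each. The sources used here do not say whether a line was a clone or a pool, or whether each replicate was its own culture, so p-values reflect the scatter among these arrays, which may be technical. The 12 arrays lay on 3 slides, each with 1 array of every group, and replicate numbers 1 to 3 are the slides.

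Levels below are log2 of the processed signal minus the 75th percentile of the array, listed in the order of slides 1, 2 and 3. They compare samples for 1 gene and do not rank genes, since probes differ in brightness. Between 22318 and 27448 of 41174 probes lay above background on an array. Six4 levels were -3.03, -2.93 and -1.54 in shSix4 MyoD cells and -4.10, -3.0 and -2.82 in shSix4 vector cells, against -1.45, -1.70 and -0.85 in shLuc MyoD cells and -2.62, -2.90 and -1.64 in shLuc vector cells. Six4 values of the lines overlap in both states. The Six4 difference between the lines was -1.17 ± 0.49 with MyoD and -0.92 ± 0.49 with the vector (SE, limma adjusted p = 0.558 and 0.999, and 0.0424 and 0.168 with the slide as a block). The Myod1 difference with MyoD was 2.10 ± 0.90 in shSix4 cells (adjusted p = 0.482), and in shLuc cells the probe rose by 4.03 ± 0.90 (adjusted p = 0.0315). These Myod1 fits lacked the vector array of slide 3 in each line, where the spot carried an outlier mark. All 8 skeletal muscle markers were above background on every MyoD array, and their summed level was 7.46 to 8.19 in shSix4 MyoD cells and 1.54 to 3.46 in shSix4 vector cells, 8.96 to 9.58 in shLuc MyoD cells and 2.69 to 3.29 in shLuc vector cells. Of the 8, 4 were above background on no shSix4 vector array and 1 on no shLuc vector array. The summed level of 8 fibroblast markers was 10.4 to 11.3 across the 12 arrays, and none of 3 endothelial markers was above background on any array of the 4 groups. In such bulk RNA, fewer converted cells and less RNA per converted cell cannot be told apart.

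The regions just before the transcription start are shown for the members on which the results turn, since MyoD is known to bind E-boxes (CANNTG), of which CAGCTG is a form often bound by MyoD. RefSeq windows (GRCm38.p6) were at hand for 57 of the 68 symbols, of which the 250 bases before the start were read. Capitals mark E-boxes and the sequences run 5′ to 3′ on the strand of the gene. Asb2 has 2 annotated starts, on the minus strand of chromosome 12 at chr12:103338391-103338640 and chr12:103356002-103356251. Klhl41 lies at chr2:69669870-69670119, Klhl40 at chr9:121777357-121777606, Trim63 at chr4:134314870-134315119, Trim54 at chr5:31116362-31116611 and Klhl31 at chr9:77636482-77636731, all on the plus strand. Asb6, at chr2:30828301-30828550 on the minus strand, is the member with the tightest bound on its MyoD response in shLuc cells and is shown for comparison.
Asb2 first window: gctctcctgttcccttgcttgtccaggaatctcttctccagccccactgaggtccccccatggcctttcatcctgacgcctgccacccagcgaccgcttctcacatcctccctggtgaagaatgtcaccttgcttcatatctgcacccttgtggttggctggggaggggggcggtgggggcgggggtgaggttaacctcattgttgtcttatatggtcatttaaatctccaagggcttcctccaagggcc
Asb2 second window: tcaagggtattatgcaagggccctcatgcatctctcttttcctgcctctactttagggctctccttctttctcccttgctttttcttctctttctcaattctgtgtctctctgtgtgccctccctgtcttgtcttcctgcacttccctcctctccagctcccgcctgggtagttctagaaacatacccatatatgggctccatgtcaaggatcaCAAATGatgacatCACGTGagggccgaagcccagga
Klhl41: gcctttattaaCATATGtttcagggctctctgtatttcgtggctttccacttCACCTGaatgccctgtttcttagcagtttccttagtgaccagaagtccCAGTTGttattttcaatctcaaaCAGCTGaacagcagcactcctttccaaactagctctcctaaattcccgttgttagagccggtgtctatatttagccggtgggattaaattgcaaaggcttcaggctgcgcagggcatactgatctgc
Klhl40: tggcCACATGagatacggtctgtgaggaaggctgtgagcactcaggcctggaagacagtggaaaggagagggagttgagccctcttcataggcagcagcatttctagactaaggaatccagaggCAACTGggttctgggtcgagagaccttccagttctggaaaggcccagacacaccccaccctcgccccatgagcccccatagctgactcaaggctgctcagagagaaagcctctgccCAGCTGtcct
Trim63: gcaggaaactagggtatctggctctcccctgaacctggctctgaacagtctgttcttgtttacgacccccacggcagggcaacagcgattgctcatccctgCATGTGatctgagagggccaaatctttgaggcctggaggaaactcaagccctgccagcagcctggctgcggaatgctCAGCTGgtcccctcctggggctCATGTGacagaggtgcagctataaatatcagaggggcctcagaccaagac
Trim54: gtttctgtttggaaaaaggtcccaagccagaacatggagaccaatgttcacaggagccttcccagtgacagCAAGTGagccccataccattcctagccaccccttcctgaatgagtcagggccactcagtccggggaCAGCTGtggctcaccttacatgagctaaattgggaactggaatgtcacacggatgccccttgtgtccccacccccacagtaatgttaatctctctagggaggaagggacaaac
Klhl31: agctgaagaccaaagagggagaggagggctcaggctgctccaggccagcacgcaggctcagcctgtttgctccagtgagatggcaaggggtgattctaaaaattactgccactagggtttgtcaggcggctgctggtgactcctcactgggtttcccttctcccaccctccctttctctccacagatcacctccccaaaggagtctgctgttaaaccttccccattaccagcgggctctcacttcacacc
Asb6: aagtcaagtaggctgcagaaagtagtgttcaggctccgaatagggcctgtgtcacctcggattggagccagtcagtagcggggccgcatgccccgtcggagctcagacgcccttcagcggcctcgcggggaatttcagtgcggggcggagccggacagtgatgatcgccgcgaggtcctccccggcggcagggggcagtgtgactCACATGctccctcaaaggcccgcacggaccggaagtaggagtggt

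The Klhl41 window holds 4 E-boxes, those of Klhl40 and Trim63 hold 3 each, and that of Trim54 holds 2. One E-box in each of these 4 windows reads CAGCTG, starting 127, 10, 72 and 113 bases before the start of Klhl41, Klhl40, Trim63 and Trim54. The first Asb2 window and the Klhl31 window hold none, and the second Asb2 window holds 2 E-boxes, neither of them CAGCTG. Of the 9 members that rose with MyoD in both lines, 8 had a window, 15 windows in all, and Klhl30 had none. CAGCTG, which is its own reverse complement and is counted among the E-boxes, was in 6 of these 15 windows (40.0%), in 4 of 38 windows of members called for MyoD in neither line and in 13% of all 32851 windows. Any E-box was in 73.3% of the first set, 44.7% of the second and 66.2% of all windows. The 18 windows of members that were not tested held CAGCTG in 27.8% and any E-box in 88.9%, the second above the raised members, and the 4 windows of members called in 1 line held CAGCTG in none and an E-box in 3. The heptamer TCAGGTT, the core of the MEF3 site bound by Six4 and its relatives, was searched on both strands and was in none of the 15 windows, in 1 of the 38 and in 3.5% of all. A MEF2-like palindrome (CTA and TAG, 4 bases apart) was in 1 of the 15 windows, that of Klhl41, in 2 of the 38, in 5 of the 18 windows of untested members (27.8%) and in 3.2% of all. Windows of 1 gene overlap in places, and overlapping Klhl13 windows count the same CAGCTG more than once, so windows are not independent. These are matches of letters in a short stretch, and binding was not measured.

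MyoD raised a subset of the ligase genes, while most of the others were not called. Most of the raised genes were on a list of muscle members drawn up with earlier results of these data known. In shSix4 cells 9 of 48 rose and none fell (1 had an unadjusted p under 0.05), beside 2.89% of all genes called, which divides into 2.79% higher and 0.106% lower. In shLuc cells 11 rose and 1 fell, beside 6.28% of all genes called, 4.72% higher and 1.56% lower. The 9 genes called in shSix4 cells, Asb2, Asb5, Klhl13, Klhl30, Klhl31, Klhl40, Klhl41, Trim54 and Trim63, were all called higher in shLuc cells too. Kbtbd8 and Klhl22 were called higher only in the test of shLuc cells, and Klhl1 was called lower there. Calls are limma tests at an adjusted p under 0.05 over all 12300 genes. For 7 of the 48, only MyoD groups had the probe above background on all 3 arrays, which let it into the test and limits these counts. With only probes above background on all 12 arrays, 2 members were called in shSix4 cells and 4 in shLuc cells. With normexp on each spot's own background, 0 of 48 were called in shSix4 cells and 1 (Trim54) in shLuc cells, and the 5th percentile of corrected signal was 199.2 to 1007 on 3 arrays and 57.18 to 61.12 on the other 9, and the part of those arrays in the lost calls was not tested. With 1 background value per array, added after seeing the data, 6 were called in shSix4 cells and 8 in shLuc cells, and the calls of Asb5, Klhl13 and Klhl31 in shSix4 cells and of Asb5, Kbtbd8, Klhl22 and Klhl1 in shLuc cells were lost. The median log2 difference with MyoD over all genes was -0.06 in shSix4 cells and -0.15 in shLuc cells, and that over the 48 was 0.02 in shSix4 cells and -0.04 in shLuc cells.

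**Figure D1:**
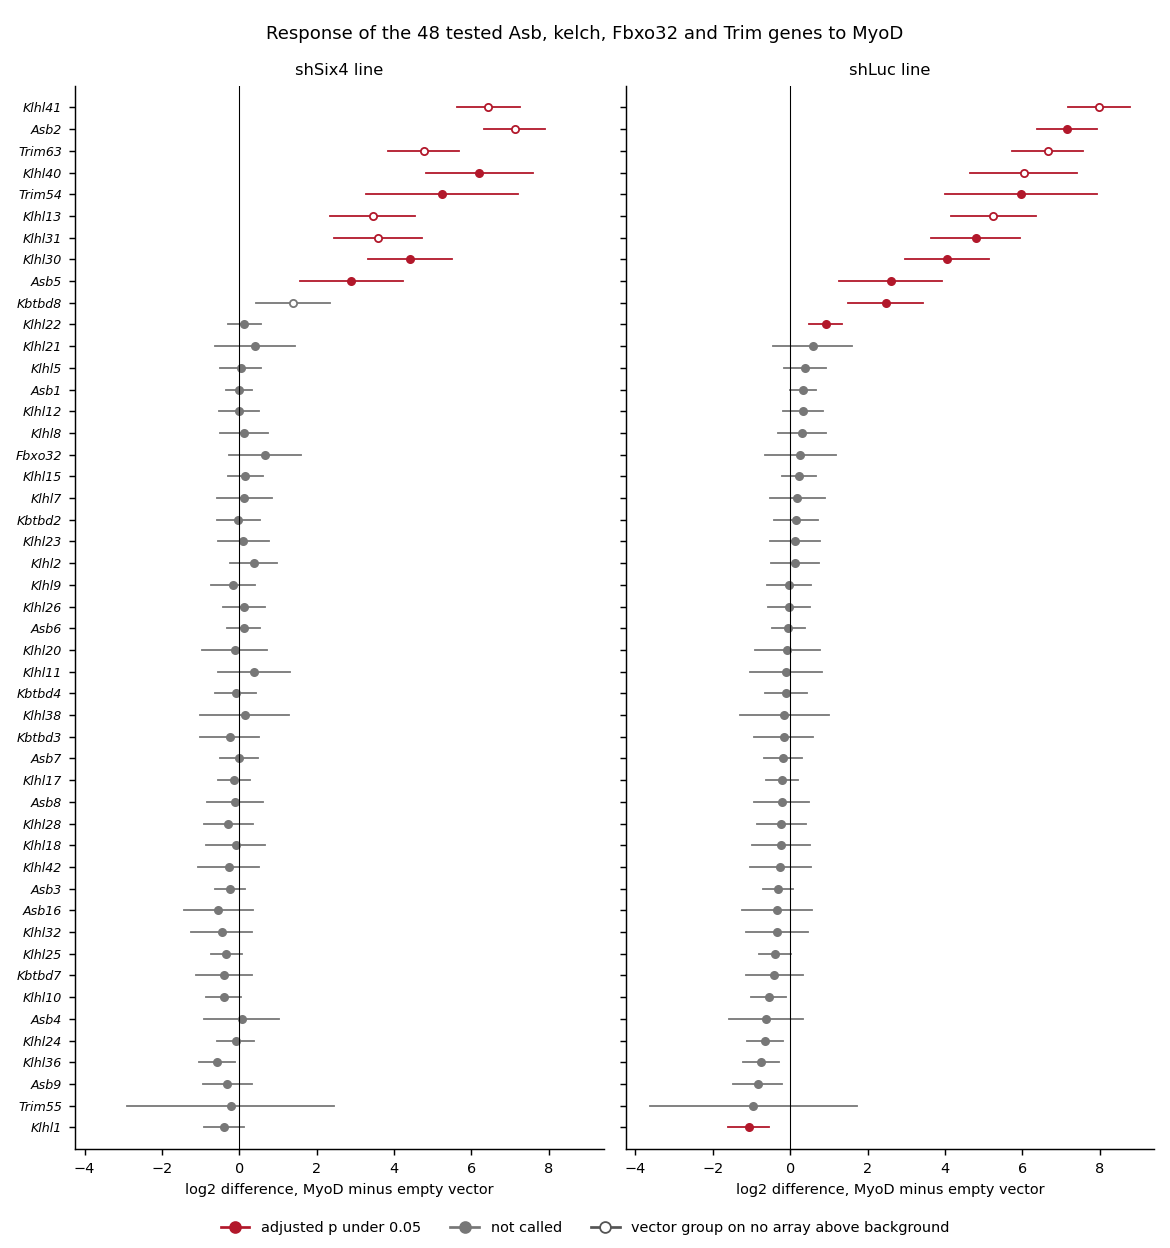
The log2 difference between MyoD and empty-vector cells is plotted for the 48 tested genes with its 95% interval, in the shSix4 line on the left and the shLuc line on the right, ordered by the shLuc value. Red marks the 9 and 12 called genes, open points mark genes whose probe was above background on no vector array of that line, and most of the grey genes lie near 0.

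Among the Asb genes, Asb2 and Asb5 rose in both lines and the other 8 tested were called in neither. Asb2, whose known substrates include filamins, had levels of -0.54, -0.80 and -0.35 in shSix4 MyoD cells, against -7.14, -7.96 and -7.96 in shSix4 vector cells. Its levels were 1.28, 0.20 and 0.51 in shLuc MyoD cells, against -5.86, -6.83 and -6.79 in shLuc vector cells. The MyoD arrays stand far above the vector arrays on every slide. The probe was above background on 0 of 3 vector arrays in shSix4 cells and on 1 of 3 in shLuc cells. Asb2 rose by 7.12 ± 0.36 in shSix4 cells, at least 28.2-fold, and by 7.16 ± 0.36 in shLuc cells (log2, SE, limma adjusted p = 5.15e-07 and 2.59e-07). A bound of this kind sets the mean of the bright group against the lowest signal above background on each dim array, or the probe's own signal where that is higher. Every "at least" value here is such a bound on group means. It allows for the floor of the dim arrays and not for the scatter among the 3 arrays of a group. With a normexp background correction that used 1 background value per array and an offset of 50, the Asb2 changes were 3.35 in shSix4 cells and 4.16 in shLuc cells (adjusted p = 1.56e-05 and 1.32e-06).

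Asb5, a family member known from striated muscle, had levels of -0.62, -3.15 and -2.24 in shSix4 MyoD cells, against -5.03, -4.75 and -4.92 in shSix4 vector cells. In shLuc cells its levels were -1.15, -2.66 and -2.24 with MyoD, against -5.43, -3.91 and -4.50 with the vector. The groups do not overlap in either line, but the MyoD arrays of slide 1 are clearly the highest. Asb5 rose by 2.90 ± 0.61 in shSix4 cells and by 2.60 ± 0.61 in shLuc cells (adjusted p = 0.0248 and 0.0274). Leaving out 1 array ended the call in several cases. In shSix4 cells the change was 2.21 and the adjusted p 0.0607 without the MyoD array of slide 1, and the adjusted p was 0.0733 without that of slide 3, and 0.0725, 0.0742 and 0.087 without the vector arrays of slides 1, 2 and 3. In shLuc cells it was 0.112 without the MyoD array of slide 1, 0.0718 without that of slide 3, and 0.108 and 0.0704 without the vector arrays of slides 1 and 3. With normexp and 1 background value per array, Asb5 was not called, at 1.74 in shSix4 and 1.43 in shLuc cells (adjusted p = 0.0744 and 0.0936).

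Among the kelch genes, 5 of 29 Klhl genes rose in both lines, and none of 5 Kbtbd genes did. Klhl41 and Klhl40 are sarcomere proteins, mutated in human nemaline myopathy, and Klhl40 is known to stabilise nebulin and the leiomodin Lmod3. Klhl41 levels were -0.75, -1.63 and -0.40 in shSix4 MyoD cells, against -6.79, -7.54 and -7.74 in shSix4 vector cells. They were 0.71, -0.04 and 0.53 in shLuc MyoD cells, against -7.59, -7.19 and -7.99 in shLuc vector cells. None of the 6 vector arrays was above background, so the change of 6.43 ± 0.37 in shSix4 cells stands for at least 21.9-fold and that of 7.99 ± 0.37 in shLuc cells for at least 81.6-fold (adjusted p = 1.41e-06 and 1.47e-07).

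Klhl40 levels were 0.75, -0.98 and -0.63 in shSix4 MyoD cells, against -6.99, -6.92 and -5.57 in shSix4 vector cells. They were 1.70, -0.71 and -0.08 in shLuc MyoD cells, against -5.85, -5.48 and -5.87 in shLuc vector cells. Slide 1 gave the highest MyoD value in both lines, and every MyoD array lies above every vector array. Klhl40 rose by 6.21 ± 0.63 in shSix4 cells (adjusted p = 1.42e-04), where 1 of 3 vector arrays was above background. In shLuc cells Klhl40 rose by 6.03 ± 0.63, an estimate of 65.5-fold (adjusted p = 1.06e-04). There no vector array was above background for this probe, yet each signal exceeded the lowest signal above background on its array. The bound therefore equals the estimate and sets no lower limit. Without the MyoD array of slide 1, the shLuc value was 5.34.

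Klhl31, needed for skeletal muscle growth in mice, had levels of -2.43, -3.69 and -3.15 in shSix4 MyoD cells, against -6.46, -6.87 and -6.69 in shSix4 vector cells. Its levels were -0.44, -1.87 and -1.96 in shLuc MyoD cells, against -6.08, -7.23 and -5.35 in shLuc vector cells. The probe was above background on 1 of the 6 vector arrays, a shLuc one, and the groups do not overlap. Klhl31 rose by 3.58 ± 0.52, at least 4.90-fold, in shSix4 cells and by 4.80 ± 0.52 in shLuc cells (adjusted p = 0.0021 and 1.44e-04), and with normexp and 1 background value per array by 1.303 in shSix4 and 1.94 in shLuc cells (adjusted p = 0.126 and 0.00628).

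Klhl30 was above background on all 12 arrays, so its change needs no bound. Its levels were 0.83, -1.10 and -0.28 in shSix4 MyoD cells, against -3.92, -5.13 and -4.75 in shSix4 vector cells, and 1.56, 0.49 and 0.65 in shLuc MyoD cells, against -2.66, -3.49 and -3.31 in shLuc vector cells. Klhl30 rose 21.4-fold in shSix4 cells and 16.7-fold in shLuc cells, or by 4.42 ± 0.50 and 4.06 ± 0.50 on the log2 scale (adjusted p = 2.87e-04 and 3.58e-04).

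Klhl13, which in human cells pairs with Klhl9 on Cul3 to act on Aurora B in mitosis, is not on the list of muscle members used here. Its levels were -3.24, -4.97 and -4.33 in shSix4 MyoD cells, against -7.07, -7.87 and -7.94 in shSix4 vector cells. They were -1.94, -3.31 and -2.58 in shLuc MyoD cells, against -7.61, -7.40 and -8.57 in shLuc vector cells. No vector array was above background, and Klhl13 rose by 3.45 ± 0.50, at least 2.30-fold, in shSix4 cells and by 5.25 ± 0.50, at least 10.2-fold, in shLuc cells (adjusted p = 0.00196 and 4.60e-05). With normexp and 1 background value per array it was 0.87 in shSix4 cells and 1.38 in shLuc cells (adjusted p = 0.4485 and 0.0381). Its partner Klhl9 differed by -0.17 in shSix4 cells and -0.02 in shLuc cells and was not called. Another Klhl9 probe, above background on all 12 arrays and not used in the test, differed by -0.185 in shSix4 cells and -0.482 in shLuc cells.

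Both Trim members that rose are MuRF proteins. Trim63 (MuRF1), a ligase of muscle atrophy, had levels of -2.11, -3.33 and -2.70 in shSix4 MyoD cells, against -7.06, -7.68 and -7.72 in shSix4 vector cells. Its levels were -0.42, -1.85 and -1.47 in shLuc MyoD cells, against -7.61, -7.65 and -8.44 in shLuc vector cells. No vector array was above background, and the changes of 4.77 ± 0.42 in shSix4 cells and 6.66 ± 0.42 in shLuc cells stand for at least 6.36-fold and at least 26.2-fold (adjusted p = 4.13e-05 and 1.76e-06).

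Trim54 (MuRF3), known to bind microtubules and the sarcomere, was above background on all arrays. Its levels were 3.22, 1.42 and 1.57 in shSix4 MyoD cells, against -1.57, -3.98 and -3.95 in shSix4 vector cells, and 4.51, 2.68 and 3.01 in shLuc MyoD cells, against -0.81, -3.11 and -3.80 in shLuc vector cells. In all 4 groups the array of slide 1 was the highest, yet within each line every MyoD array lies above every vector array. Trim54 rose 37.6-fold in shSix4 cells and 62.7-fold in shLuc cells, or by 5.23 ± 0.89 and 5.97 ± 0.89 on the log2 scale (adjusted p = 0.00645 and 0.00157). Its log2 change was 6.03 in shSix4 cells without the vector array of slide 1, and in shLuc cells 6.85 without the vector array of slide 1 and 5.36 without that of slide 3.

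Fbxo32 and Trim55 were not called in either line. Fbxo32, like Trim63 a ligase gene of muscle atrophy, was above background on all 12 arrays. Its levels were 1.08, 0.11 and -0.57 in shSix4 MyoD cells and -0.53, -0.35 and -0.49 in shSix4 vector cells, 0.53, -0.11 and -0.48 in shLuc MyoD cells and -0.48, 0.35 and -0.73 in shLuc vector cells. The groups overlap in both lines, and the difference was 0.66 ± 0.42 in shSix4 cells and 0.27 ± 0.42 in shLuc cells (adjusted p = 0.761 and 0.801), with 95% intervals of -0.26 to 1.58 and -0.66 to 1.19. Trim55 (MuRF2) levels were -3.79, 0.14 and -1.02 in shSix4 MyoD cells and -2.74, -0.36 and -0.91 in shSix4 vector cells, -2.67, -3.48 and -0.39 in shLuc MyoD cells and -3.38, 0.27 and -0.55 in shLuc vector cells. Trim55 spread over more than 2 log2 units within each group, and its 95% intervals of -2.90 to 2.46 in shSix4 cells and -3.64 to 1.72 in shLuc cells span several log2 units on both sides of 0.

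**Figure D2:**
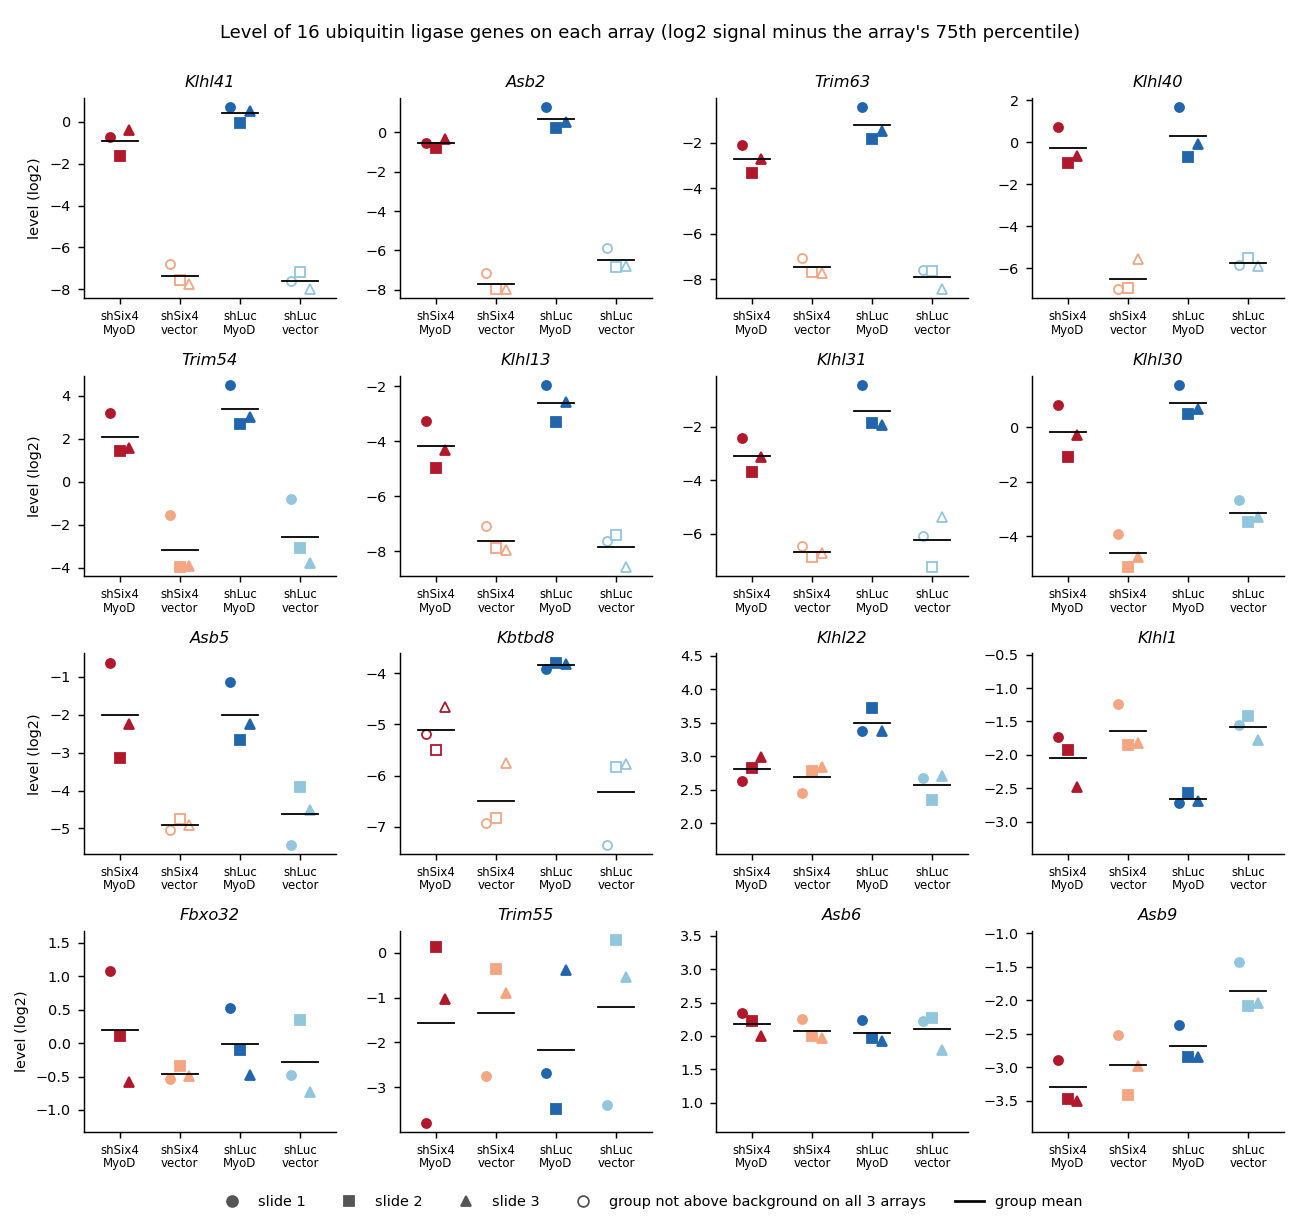
Levels (log2 of the signal minus the 75th percentile of the array) are plotted for 16 genes on each array, with circles, squares and triangles for slides 1, 2 and 3 and a bar for the group mean. Open symbols mark groups not above background on all 3 arrays. For Klhl41, Asb2, Trim63 and Klhl40 every MyoD array stands above every vector array, whereas for Fbxo32, Trim55 and Asb6 the groups overlap.

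Kbtbd8, Klhl22 and Klhl1 were called in shLuc cells alone. Kbtbd8, a Cul3 adaptor known from neural crest formation in frogs and human cells, had levels of -5.19, -5.50 and -4.66 in shSix4 MyoD cells, against -6.92, -6.82 and -5.75 in shSix4 vector cells. Its levels were -3.92, -3.79 and -3.82 in shLuc MyoD cells, against -7.35, -5.82 and -5.77 in shLuc vector cells. The shLuc MyoD arrays are the highest and closest together. The difference in shSix4 cells was 1.38 ± 0.44 (adjusted p = 0.187, and 0.0323 with the slide as a block). There 2 of 3 MyoD arrays and no vector array were above background, and the bound on the group means was 1.2-fold. Kbtbd8 rose by 2.47 ± 0.44 in shLuc cells (adjusted p = 0.00512), where 1 of 3 vector arrays was above background, and the shLuc value was 0.43 with normexp and 1 background value per array (adjusted p = 0.349).

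Klhl22, linked to the mitotic kinase Plk1 in human cells, had levels of 2.63, 2.83 and 2.99 in shSix4 MyoD cells, against 2.45, 2.78 and 2.83 in shSix4 vector cells. Its levels were 3.37, 3.72 and 3.38 in shLuc MyoD cells, against 2.67, 2.35 and 2.70 in shLuc vector cells. The difference in shSix4 cells was 0.13 ± 0.19 (adjusted p = 0.991), and Klhl22 rose 1.89-fold in shLuc cells (log2 0.92 ± 0.19, adjusted p = 0.0146). Its adjusted p in shLuc cells was 0.0636 without the MyoD array of slide 2 and 0.0602 without the vector array of slide 2, and 0.0951 with normexp and 1 background value per array.

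Klhl1, an actin-binding kelch protein known from the mouse brain, had levels of -1.73, -1.92 and -2.48 in shSix4 MyoD cells, against -1.24, -1.85 and -1.82 in shSix4 vector cells. Its levels were -2.72, -2.57 and -2.69 in shLuc MyoD cells, against -1.56, -1.43 and -1.78 in shLuc vector cells. The difference in shSix4 cells was -0.41 ± 0.24 (adjusted p = 0.713), and Klhl1 fell by 1.08 ± 0.24 in shLuc cells (adjusted p = 0.0194). Its adjusted p in shLuc cells was 0.0744 without the MyoD array of slide 1, 0.0743 without that of slide 3, 0.0674 and 0.0794 without the vector arrays of slides 1 and 2, and 0.0614 with normexp and 1 background value per array. The interaction of line and MyoD was -1.09 ± 0.62 for Kbtbd8, -0.79 ± 0.27 for Klhl22 and 0.67 ± 0.33 for Klhl1 (adjusted p = 0.9999 for each), so a line-specific response was not shown for any of them.

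The remaining 36 members were called for MyoD in neither line. Their log2 differences lay between -0.58 and 0.66 in shSix4 cells and between -0.96 and 0.58 in shLuc cells, with 33 and 29 of 36 within 0.5 of 0. Their medians were -0.10 and -0.16, close to the medians of -0.06 and -0.15 over all genes. The tightest bounds in shLuc cells were those of Asb6, Klhl26, Klhl9, Klhl17, Kbtbd4, Asb1, Klhl15 and Asb7, whose 95% intervals reach no further than 1.39-fold for Asb6 and 1.61-fold for Asb7. Asb6 levels were 2.34, 2.22 and 1.99 in shSix4 MyoD cells and 2.26, 1.99 and 1.97 in shSix4 vector cells, 2.24, 1.97 and 1.93 in shLuc MyoD cells and 2.23, 2.27 and 1.79 in shLuc vector cells. Its difference was 0.11 ± 0.19 in shSix4 cells and -0.05 ± 0.19 in shLuc cells, with a 95% interval of -0.47 to 0.37 in shLuc cells. For the other 7 in that order, the difference was 0.13, -0.17, -0.14, -0.09, -0.01, 0.16 and -0.01 in shSix4 cells and -0.03, -0.02, -0.20, -0.11, 0.33, 0.24 and -0.20 in shLuc cells.

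Among these 36, the largest differences in any comparison were those of Asb9, Trim55, Klhl36 and Asb4. Klhl36 differed by -0.58 ± 0.21 in shSix4 cells and -0.75 ± 0.21 in shLuc cells (adjusted p = 0.294 and 0.0625), and both passed with the slide as a block (adjusted p = 0.025 and 0.00353). Asb9, which binds creatine kinase B in human cells, differed with MyoD by -0.32 ± 0.29 in shSix4 cells (adjusted p = 0.922) and by -0.84 ± 0.29 in shLuc cells (adjusted p = 0.129, block adjusted p = 0.00157). Asb4 differed by 0.06 ± 0.44 in shSix4 cells and -0.63 ± 0.44 in shLuc cells, and its groups overlap in both. With the slide as a block, Klhl24, Klhl10 and Klhl21 also passed in shLuc cells, with differences of -0.65, -0.55 and 0.58 (adjusted p = 0.0341, 0.0493 and 0.0343). In all, 11 of 48 passed with the block in shSix4 cells and 17 of 48 in shLuc cells, beside 8.3% and 25.6% of all genes.

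Of the 25 members listed here as known for muscle expression or muscle phenotypes, 15 could be tested, and 8 of 15 rose in each line. Of the other 33 tested, 1 rose in shSix4 cells (Klhl13) and 3 rose in shLuc cells (Klhl13, Klhl22 and Kbtbd8). Of all genes, 2.79% rose in shSix4 cells and 4.72% in shLuc cells. The list was drawn up with earlier results of these data known, and 5 of its 15 passed the filter only through MyoD groups. The split is therefore partly set in advance and is no test of muscle membership. Muscle members that were tested and not called were Asb4, Asb8, Asb16, Klhl21, Klhl38, Fbxo32 and Trim55. Below the filter on dim probes were 11 members, Asb10, Asb11, Asb12, Asb14, Asb15, Asb17, Asb18, Kbtbd13, Klhl4, Klhl6 and Klhl14, of which 7 belong to the muscle list. Of these 11, Asb10 was above background on 1 of 12 arrays and Asb18 on 2 of 12, and the others on none. Without the filter, Asb10 passed in shLuc cells at 2.20 ± 0.48 (limma adjusted p = 0.0308), a value taken almost wholly from signal below background. Asb13, Kbtbd6, Kbtbd11, Kbtbd12, Klhl3, Klhl29, Klhl33, Klhl34 and Klhl35 had no named probe. Asb2, Kbtbd8, Klhl13, Klhl31, Klhl40, Klhl41 and Trim63 passed the filter only through MyoD groups and so had to differ, which limits what the count of called members says. The called members were each measured by 1 probe that passed the filter. Another Klhl31 probe, above background on 3 of 12 arrays, did not pass, and its MyoD difference was 0.91 in shSix4 cells and 2.60 in shLuc cells.

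The difference between the hairpin lines was not called for any of the 48 in the fit without slides, and for several it was called with the slide as a block. With MyoD, 0 of 48 differed between shSix4 and shLuc cells in limma, beside 0.228% of all genes, and 8 had an unadjusted p under 0.05, of which 7 were lower in shSix4, beside 7.8% of all genes. With the empty vector, 0 of 48 differed, beside 0.0569% of all genes, and 3 had an unadjusted p under 0.05, all lower, beside 4.45% of all genes. With the slide as a block, 8 of 48 were lower in shSix4 MyoD cells than in shLuc MyoD cells (Asb2, Asb9, Klhl13, Klhl22, Klhl30, Klhl31, Trim54 and Trim63), beside 4.33% of all genes called and 2.59% called lower. Without a model, the shSix4 and shLuc MyoD groups did not overlap for 8 members lower in shSix4 cells and 2 higher, beside 6.09% and 6% of all genes. The block also gave 3 lower members with the empty vector (Asb2, Asb9 and Klhl30), beside 0.642% of all genes called and 0.496% called lower.

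Asb2 signal was lower in shSix4 cells on every slide in both states, but with the vector nearly all of it lay below background. With MyoD, its difference between the lines was -1.81, -1.0 and -0.87 on slides 1, 2 and 3, a mean of -1.23 ± 0.36 (adjusted p = 0.233, and 0.0138 with the block). With the empty vector, it was -1.27, -1.13 and -1.16, a mean of -1.19 ± 0.36 (adjusted p = 0.718, and 0.0403 with the block). The order of signals from high to low was shLuc MyoD, shSix4 MyoD, shLuc vector and shSix4 vector, with no overlap between neighbours. The vector values come from arrays of which 1 of 6 was above background, so neither the size nor the direction of the vector difference is a measured level of Asb2. The MyoD response of Asb2 differed between the lines by -0.04 ± 0.50, with a 95% interval of -1.15 to 1.07 (adjusted p = 0.9999). With normexp and 1 background value per array, the line difference was -1.22 with MyoD and -0.42 with the vector, and the responses differed by -0.81.

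Klhl30, above background on all arrays, was also lower in shSix4 cells on every slide in both states, although its MyoD groups overlap. Its difference between the lines was -0.73, -1.60 and -0.93 with MyoD and -1.26, -1.64 and -1.43 with the vector on slides 1, 2 and 3, means of -1.09 ± 0.50 and -1.44 ± 0.50. Adjusted p was 0.645 and 0.85 without the block, and 0.0158 and 0.0142 with it. Asb9, which MyoD did not raise, was also lower in shSix4 cells on every slide, with means of -0.60 ± 0.29 with MyoD and -1.12 ± 0.29 with the vector (adjusted p = 0.696 and 0.415, block adjusted p = 0.0302 and 0.00737). Asb9 levels were -2.89, -3.48 and -3.50 in shSix4 MyoD cells and -2.52, -3.42 and -2.98 in shSix4 vector cells, against -2.38, -2.84 and -2.85 in shLuc MyoD cells and -1.43, -2.09 and -2.04 in shLuc vector cells.

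With MyoD, Klhl41, Trim63, Klhl13, Klhl31 and Trim54 had lower levels in the shSix4 line on all 3 slides, and of these only Trim54 did so with the vector. With MyoD the difference was -1.32 ± 0.37 for Klhl41 (adjusted p = 0.21, and 0.0583 with the block), and with the vector it was 0.23 between groups below background. That of Trim63 was -1.47 ± 0.42 with MyoD (adjusted p = 0.222, and 0.0175 with the block), and that of Klhl13 was -1.57 ± 0.50 (adjusted p = 0.299, and 0.0367 with the block). Klhl31 differed by -1.67 ± 0.52 with MyoD (adjusted p = 0.293, and 0.0408 with the block) and Trim54 by -1.33 ± 0.89 (adjusted p = 0.907, and 0.0225 with the block). The differences for Trim54 were nearly equal on the 3 slides, at -1.30, -1.26 and -1.44, although its level moved by more than 1 log2 unit between slides. Klhl40 differed by -0.59 ± 0.63 and Asb5 by 0.01 ± 0.61, and neither passed with or without the block.

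Of the 9 members higher with MyoD in both lines, 8 were lower in shSix4 than in shLuc MyoD cells on all 3 slides, as were 18.5% of all genes, and Asb5 was not. Their median difference between the lines was -1.32, against 0.02 for the 36 members not called for MyoD and 0.03 for all genes. The comparison with MyoD shares its arrays with the MyoD responses that define the 9, so these values are given side by side only. The summed level of the 8 skeletal muscle markers was also lower, at 7.46 to 8.19 on the shSix4 MyoD arrays and 8.96 to 9.58 on the shLuc MyoD arrays, and the Myod1 probe was lower on all 3 slides, at -2.24, -0.64 and -1.46, a mean of -1.45 ± 0.81 (adjusted p = 0.837, and 0.151 with the block). Their part in the difference was not tested. The interaction, which asks whether the MyoD response itself differed between the lines, called 0 of 12300 genes (0%) in limma with or without the block, and 249 genes had an unadjusted p under 0.05 without it. Among the 48, 4 had an unadjusted p under 0.05, beside 2.02% of all genes. They were Trim63 at -1.89 ± 0.59, Klhl13 at -1.81 ± 0.70, Klhl41 at -1.55 ± 0.52 and Klhl22 at -0.79 ± 0.27 (adjusted p = 0.9999 for each). For Trim63, Klhl13 and Klhl41 no vector array of either line was above background, so the vector part of their interaction is not a measured level.

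**Figure D3:**
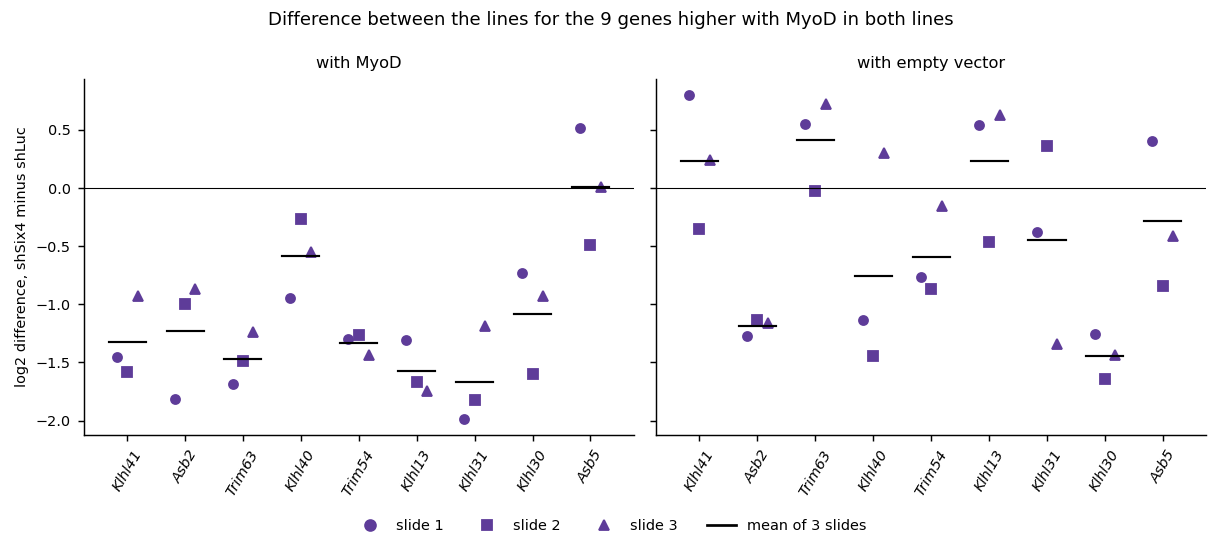
The log2 difference between shSix4 and shLuc cells on each slide is plotted for the 9 genes that MyoD raised in both lines, with MyoD on the left and with the empty vector on the right, and the bar is the mean of 3 slides. With MyoD, 8 of the 9 lie below 0 on all slides and Asb5 does not, while with the vector only Asb2, Trim54 and Klhl30 do so.

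In MyoD cells the raised genes had much the same order over the slides. The matching share over all genes was not computed. Deviations from the group means over all tested genes also correlated between arrays of the same slide (r 0.278 to 0.819), so this order is not shown to be particular to the raised genes. In shSix4 MyoD cells 7 of the 9 had their highest level on slide 1, and all 9 their lowest on slide 2. In shLuc MyoD cells all 9 were highest on slide 1, and 8 of 9 were lowest on slide 2. On slides 1, 2 and 3 the highest level fell for 7, 1 and 1 genes in shSix4 vector cells and for 4, 4 and 1 in shLuc vector cells, and the lowest for 2, 4 and 3 and for 1, 3 and 5. The sources used here do not say what else differed between slides.

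The ligase machinery that these proteins plug into holds scaffolds and linkers, and its calls stand beside 2.89% of all genes called in shSix4 and 6.28% in shLuc cells. Of 13 tested cullins, RING partners and linkers, 0 were called in shSix4 cells (1 at an unadjusted p under 0.05, also Rnf7) and 1 in shLuc cells, Rnf7, the RING partner of Cul5, which rose by 0.90 ± 0.21 (adjusted p = 0.0265). Cul3 levels were 0.58, 0.52 and 1.17 in shSix4 MyoD cells and 0.65, 1.01 and 0.92 in shSix4 vector cells, 0.78, 0.94 and 0.91 in shLuc MyoD cells and 1.15, 0.80 and 1.17 in shLuc vector cells. The groups overlap, and the MyoD difference was -0.10 ± 0.21 in shSix4 cells and -0.16 ± 0.21 in shLuc cells (adjusted p = 0.997 and 0.747). Cul5 differed by 0.02 ± 0.28 in shSix4 cells and -0.07 ± 0.28 in shLuc cells (adjusted p = 0.998 and 0.932). A count of 0 or 1 of 13 is near those shares and is no result about the machinery. The median over the 13 was -0.01 in shSix4 cells and 0.14 in shLuc cells.

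Of 21 genes of cullin neddylation and adaptor exchange, 1 rose in each line. This was Cand2, the muscle-enriched relative of the exchange factor Cand1, at 1.53 ± 0.26 in shSix4 cells and 2.17 ± 0.26 in shLuc cells (adjusted p = 0.00689 and 3.39e-04). None of 12 other kelch genes was called by limma in either line, and 0 in shSix4 cells and 1 in shLuc cells had an unadjusted p under 0.05. With the slide as a block, 1 of the 12 was lower in shSix4 cells, and 1 was higher and 2 lower in shLuc cells. The block also called 1 of the 21 neddylation genes higher in shSix4 cells and 3 in shLuc cells. These stand beside 8.3% and 25.6% of all genes called with the block in shSix4 and shLuc cells. The median was 0.11 in shSix4 cells and 0.01 in shLuc cells for the neddylation genes and -0.08 in shSix4 cells and -0.13 in shLuc cells for the other kelch genes. Of 14 other muscle-linked ubiquitin ligases, 0 rose in shSix4 cells (1 at an unadjusted p under 0.05, also Fbxl22) and 1 in shLuc cells. This was Fbxl22, an F-box protein of the cardiac Z-disc, at 1.86 ± 0.45 in shSix4 cells and 2.13 ± 0.45 in shLuc cells (adjusted p = 0.0575 and 0.017, block adjusted p = 4.15e-04 and 1.06e-04), and the median of the 14 was -0.03 in shSix4 cells and -0.02 in shLuc cells. With the block, 1 of the 14 was higher in shSix4 cells, and 1 was higher and 2 lower in shLuc cells.

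Of 15 genes for proteins that members are known to bind or degrade, 5 rose in shSix4 cells and 7 in shLuc cells, and none fell. Of all genes, 2.79% rose in shSix4 cells and 4.72% in shLuc cells. With the slide as a block, 6 of the 15 rose in shSix4 cells, beside 5.7% of all genes. In shLuc cells 7 rose and 1 fell with the block, beside 9.89% and 15.7% of all genes. The median difference of the 15 was 0.23 in shSix4 cells and 0.05 in shLuc cells. Lmod3, the leiomodin that Klhl40 stabilises, rose by 7.38 ± 0.33 in shSix4 cells and 8.24 ± 0.33 in shLuc cells (adjusted p = 2.18e-07 and 6.65e-08). Neb, the nebulin gene, rose by 5.73 ± 0.63, at least 12.97-fold, in shSix4 cells, where the vector array of slide 1 carried an outlier mark and was left out and the other 2 were below background, and by 8.0 ± 0.56, at least 91.7-fold, in shLuc cells (adjusted p = 4.41e-04 and 9.74e-06). The giant sarcomere protein gene Ttn rose by 5.70 ± 0.69 in shSix4 cells and by 8.85 ± 0.69, at least 258.2-fold, in shLuc cells. Des, encoding the intermediate filament desmin, rose by 5.03 ± 0.66, at least 11.4-fold, in shSix4 cells and by 6.25 ± 0.66 in shLuc cells. Of 2 filamin genes chosen here after their values were seen, Flnc differed by 0.57 ± 0.21 in shSix4 cells and rose by 0.91 ± 0.21 in shLuc cells (adjusted p = 0.317 and 0.0266), whereas Flna differed by -0.26 ± 0.23 in shSix4 cells and -0.44 ± 0.23 in shLuc cells and was not called.

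Of 9 tested regulators known to act on the members, 1 rose in shSix4 cells and 3 in shLuc cells, beside 2.79% and 4.72% of all genes. Besides Myog and Mef2c, the shLuc count holds Myod1, the gene that the virus delivered, so its call is not an independent result. Whether the probe reads the viral copy was not tested. Myod1 was not called in shSix4 cells, which received the same virus. Myog, the myogenin gene, rose by 13.42 ± 0.31 in shSix4 cells, at least 4594-fold over a vector group below background, and by 13.85 ± 0.31 in shLuc cells, where 1 of 3 vector arrays was above background (adjusted p = 1.96e-09 and 1.39e-09). The Mef2c difference was 0.41 ± 0.36 in shSix4 cells (adjusted p = 0.905), and Mef2c rose by 1.49 ± 0.36 in shLuc cells (adjusted p = 0.0304). Foxo1 and Foxo3, which drive Fbxo32 and Trim63 in atrophy, differed with MyoD by 0.56 ± 0.30 and -0.14 ± 0.25 in shSix4 cells and by 0.93 ± 0.30 and -0.30 ± 0.25 in shLuc cells. Neither was called. With the block, 2 of the 9 regulators were called higher in shSix4 cells, beside 5.7% of all genes. In shLuc cells the block called 5 of the 9 higher and 2 lower, beside 9.89% and 15.7% of all genes. The count of lower regulators is near that share and is no result about them. Foxo1 was among the higher in both lines (adjusted p = 0.0256 in shSix4 and 8.69e-04 in shLuc cells). The lower ones were Klf15, at -0.65 ± 0.82 in shSix4 and -1.96 ± 0.82 in shLuc cells, and Nr3c1, the glucocorticoid receptor gene, at -0.35 ± 0.19 and -0.60 ± 0.19 (block adjusted p = 0.00865 and 0.0161 in shLuc cells). The Klf15 probe was above background on 1 of 3 shLuc MyoD arrays. The Foxo genes, Klf15 and Nr3c1 were singled out after their values were seen.

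**Figure D4:**
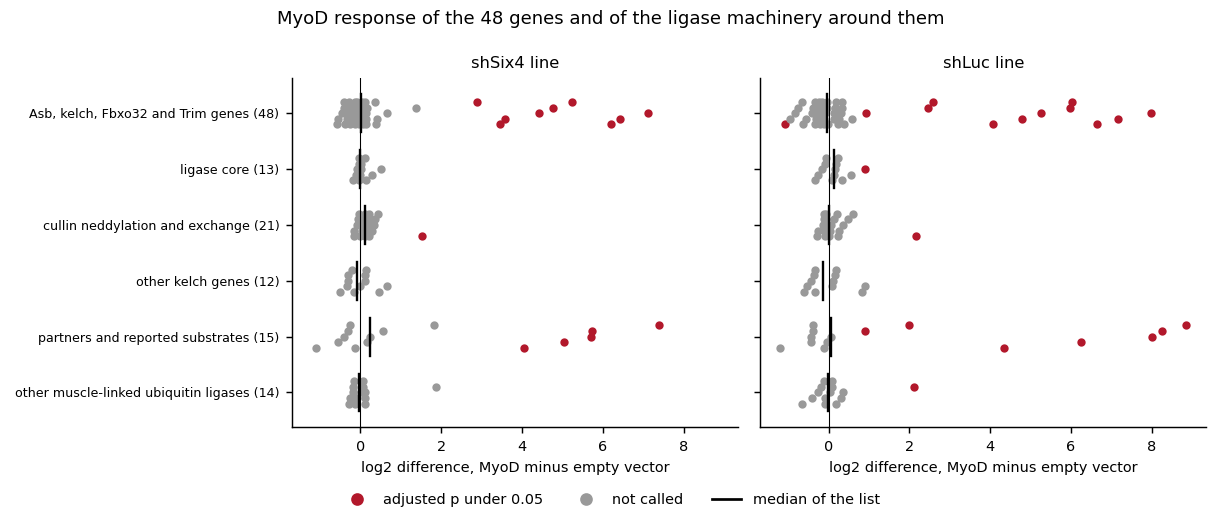
The log2 difference between MyoD and empty-vector cells is plotted for the 48 genes and for 5 lists of genes around them, in the shSix4 line on the left and the shLuc line on the right, with the number tested in parentheses and a bar at the median of the list. Called genes (red) number 9 and 12 of the 48 and 5 and 7 of the 15 partners and substrates, and each other list has at most 1 in a line.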

How the data were processed

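RNA from the 12 samples was read on single-colour mouse arrays, 45018 spots each. The deposited scanner output holds intensity per spot, background-subtracted by the authors' Feature Extraction software (version 11.5.1.1 per the file headers, whereas the submitters' processing notes give 10.5.1.1). The authors' table of log2 values, used as an alternative, is a partial copy of 3891 probes for which the sources used here name no between-array method. Its columns follow the log2 scanner values (r 0.9993 to 0.9998) and have medians of 8.659 to 8.717, and how they were centred is unknown.

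Processed intensity was set to log2, the 75th percentile of each array's non-control spots was subtracted; outlier-marked spots were dropped. A probe had to be above background on every array of some group (24000 of 41174), and each gene took its brightest kept probe. RefSeq symbols named 24844 probes, and 16330 stayed unnamed. Tests used limma 3.58.1 in R 4.3.3 (lmFit, eBayes, 1 fit over the 4 groups) with Benjamini-Hochberg adjustment over 12300 genes in each of 5 comparisons, and the scripts were tested on simulated data. Figures used Python 3.11.15 and matplotlib 3.10.9. The precision is limited by 3 arrays a group. No sample was counted as a repeat of another: arrays of a group correlated at 0.955 to 0.993.

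The slides carry the replicate numbers. Deviations from the group means correlated at 0.278 to 0.819 in all 18 same-number pairs and at -0.733 to 0.498 in the 36 others, so the numbers pair the samples. Calls given without mention of the block come from the fit without slides, which leaves this pairing out. For MyoD in shLuc cells that fit called 772 genes and the block 3153. Between the lines with MyoD it called 28 genes and the block 533. Blocked values stand beside many of the results they change. Normexp used median spot signals, since the scanner files used here hold no mean signal column.

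Genes described with values were those called in any comparison, Asb2, Fbxo32 and the 3 Trim genes whatever their result, the 8 uncalled members with the narrowest interval in shLuc cells, the 4 uncalled members with the largest difference, up to 4 called genes of each other list, and Cul3 and Cul5. Members and lists were chosen with earlier results of these data known. One free-text sample label that names another muscle line contradicts the other labels and was not used. The alternatives were quantile normalization, normexp, 2 other filters on dim probes, outlier spots kept, another probe rule, the slide block, the authors' table and leaving out each array.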

Additional observations from a re-analysis of the deposited data

How the results depend on the processing

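The number of the 48 called for MyoD was 9 in shSix4 and 12 in shLuc cells. It stayed within 1.5 times under quantile normalization, no filter on dim probes, outlier spots kept, another probe rule, the replicate block and, chosen after seeing the data, normexp with 1 background value per array. Leaving out 1 array gave 8 to 9 in shSix4 and 10 to 12 in shLuc cells, and 0 to 0 for both line comparisons and the interaction. Normexp on each spot's own background gave 0 and 1, probes above background on all 12 arrays gave 2 and 4 (36 members left), and the authors' table gave 1 and 2, of only 6 members held there, without Asb2. The paired fit with slide as a replicate block gave 8 for the lines with MyoD and 3 with the vector.

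For Asb2, normexp gave MyoD changes of 2.89 in shSix4 and 3.25 in shLuc cells (limma adjusted p = 0.252 and 0.0993). With the replicate block its line difference passed at -1.23 with MyoD and -1.19 with the vector. With the vector, that difference was -0.78 under normexp and -0.42 with 1 background value per array, where its interaction was -0.81. Leaving out 1 array, its MyoD change was 6.98 to 7.39 in shSix4 and 6.85 to 7.47 in shLuc cells, and its line difference was -1.46 to -0.92 with MyoD and -1.46 to -0.87 with the vector. The Asb2 interaction, -0.04, changed sign to 0.26 under quantile normalization and ran from -0.35 to 0.27 with 1 array left out, being 0.13 and 0.11 without the shLuc vector arrays of slides 2 and 3, 0.27 without the shLuc MyoD array of slide 1, 0.23 without the shSix4 vector array of slide 1 and 0.08 without the shSix4 MyoD array of slide 2. The cause was not tested. Small differences are limited by 3 arrays a group, and large ones by vector signals at background, where a change has only a lower bound.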
